A study of Mus musculus with 9 samples.

Results

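Of 10038 protein-coding genes that averaged at least 1 FPKM (fragments scaled to gene length and library size, the deposited unit), 73 (0.727%) were lower after oxygen–glucose deprivation (OGD) and higher again when A-485 was present. They were chosen on group means of log2(FPKM + 0.1). The OGD mean had to be at least 0.75 below the control mean and at least 0.75 below the OGD + A-485 mean, and every OGD value had to lie below every value of both other groups. The OGD step alone was met by 500 genes, of which 14.6% also met the A-485 step. Over all 16123 genes tested, 12.2% were called higher with A-485 than in OGD, at the other limits given below. The steps share the same OGD libraries, so a low OGD value helps a gene pass both, and nothing is read from that share. The OGD and A-485 differences chose the genes, so they are given below as a description with no test. The difference between OGD + A-485 and control was tested. No limit was set on it directly, but it is the sum of those differences. The choice thus limits how far below control a gene can lie, and the calls are not free of it. Throughout, "lower in OGD" and "higher with A-485" refer to the choice itself.

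All libraries came from BV2, an immortalized mouse microglial line, with 3 libraries in each of 3 groups. The Ctrl libraries came from cells in complete medium with 10% serum and normal oxygen. The OGD libraries came from cells kept in a hypoxic chamber, in a medium low in glucose and with 4% serum, and the OGD_A_485 libraries from cells under the same deprivation with A-485, a catalytic inhibitor of the acetyltransferase P300. In the experiments that precede the transcriptome A-485 was given at 50 μM from the start of 24 h of OGD, and dose and time are taken to be the same here. No library held A-485 without OGD, the groups also differed in serum, and the source for each group is this immortalized line alone. Nothing says that the libraries of a group came from separate cultures, so the p-values measure the spread between these libraries, which may be technical.

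OGD, here a lowered and not an absent supply, limits oxygen and glucose together and is used as a culture model of hypoxia–ischemia. Cells short of both are known to cut costly work such as ribosome production, growth signalling and mitochondrial transcription. P300 and its relative CBP place acetyl groups on histones at promoters and enhancers, and the same enzymes can transfer lactyl groups when lactate is high. Microglia are the macrophages of the brain and sense their surroundings through lectin, Fc, Toll-like and lipid receptors, several of which are among the 73 genes.

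The libraries held 12593250 to 16091038 reads on genes, recovered from FPKM, gene length and the scale of each library. In 64 of the 73 genes every library had at least 10 reads, while 9 genes had fewer than 10 in at least 1 OGD library. Of 12 microglia or macrophage markers, 11 averaged at least 1 FPKM, and P2ry12, a purine receptor typical of resting microglia, averaged 0.0621 FPKM in control. The summed level of these markers was 571 to 592 FPKM in control, 678 to 710 FPKM in OGD and 1302.5 to 1339 FPKM with A-485. None of the astrocyte, neuron, oligodendrocyte, endothelial or fibroblast markers averaged 1 FPKM over the libraries. In bulk RNA, fewer cells that express a gene and less RNA per cell cannot be told apart.

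The 73 genes lay on 19 chromosomes and the mitochondrial genome, 69 on the former and 4 on the latter. RefSeq promoters (GRCm38.p6) were at hand for 51 of them. In the 250 bases before the start site the palindrome CACGTG, an E-box, stood in 17.6% of these 51 and in 8.91% of the 8118 expressed genes with an entry. ACGTG, the core of the hypoxia response element, stood in 35.3% against 23% on either strand, and every CACGTG holds it on both strands. A TATA box (TATAAA) stood in 13.7% against 5.72%, while the GC box GGGCGG was in 47.1% against 61.4% and the CCAAT box in 23.5% against 37.3%. The AP-1 site TGANTCA was in 0 of 51 and in 3.94% of all. The share holding GAGGAA, a purine box of the kind the myeloid factor PU.1 binds, was 17.6% against 22.5%. Only 20 of the 51 windows held no annotated exon, so the shares include exon sequence. These are matches of letters and no evidence of a factor at the site.

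The promoters below are shown for genes on which the results turn, written on the strand of the gene, and none of the 7 windows held an annotated exon. The first 3 belong to receptors that were above control with A-485, and capitals mark GAGGAA on either strand, which Clec4a3 lacks. Clec4a1 is at chr6:122921598-122921847 (+), Clec4a3 at chr6:122952265-122952514 (+) and Fcgr1 at chr3:96293970-96294219 (-).
Clec4a1: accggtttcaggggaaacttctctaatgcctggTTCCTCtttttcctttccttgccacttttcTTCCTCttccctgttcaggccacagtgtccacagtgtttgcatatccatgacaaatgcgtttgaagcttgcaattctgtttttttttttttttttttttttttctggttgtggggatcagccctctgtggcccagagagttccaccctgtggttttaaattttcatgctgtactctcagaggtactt
Clec4a3: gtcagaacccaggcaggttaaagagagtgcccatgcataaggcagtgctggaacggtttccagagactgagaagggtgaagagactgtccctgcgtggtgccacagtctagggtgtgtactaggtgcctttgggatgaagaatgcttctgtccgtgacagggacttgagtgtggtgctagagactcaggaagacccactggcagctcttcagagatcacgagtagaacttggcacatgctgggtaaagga
Fcgr1: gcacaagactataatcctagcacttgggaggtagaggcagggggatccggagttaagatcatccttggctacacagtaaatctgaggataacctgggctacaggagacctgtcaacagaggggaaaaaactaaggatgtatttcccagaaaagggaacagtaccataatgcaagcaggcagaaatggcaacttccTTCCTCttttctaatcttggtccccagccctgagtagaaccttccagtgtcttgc

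The next promoters, of the repressor Bcl6 at chr16:23988853-23989102 (-) and the amino acid carrier Slc36a1 at chr11:55204090-55204339 (+), show the E-box shared by some of the 73 genes. Capitals mark ACGTG on either strand, so that an overlapping pair reads CACGTG.
Bcl6: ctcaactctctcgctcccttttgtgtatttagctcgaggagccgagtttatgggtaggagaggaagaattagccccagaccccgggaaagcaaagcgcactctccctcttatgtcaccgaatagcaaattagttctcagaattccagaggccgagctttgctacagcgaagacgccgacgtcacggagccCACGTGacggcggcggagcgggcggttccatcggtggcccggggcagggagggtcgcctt
Slc36a1: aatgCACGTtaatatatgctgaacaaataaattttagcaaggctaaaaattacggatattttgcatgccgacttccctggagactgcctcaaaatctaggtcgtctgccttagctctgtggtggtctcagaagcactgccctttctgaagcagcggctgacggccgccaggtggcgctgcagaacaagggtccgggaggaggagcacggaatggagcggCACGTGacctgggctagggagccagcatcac

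Cebpa at chr7:35119043-35119292 (+) and Fos at chr12:85473640-85473889 (+), both transcription factor genes, are shown for the TATA box, which is in capitals.
Cebpa: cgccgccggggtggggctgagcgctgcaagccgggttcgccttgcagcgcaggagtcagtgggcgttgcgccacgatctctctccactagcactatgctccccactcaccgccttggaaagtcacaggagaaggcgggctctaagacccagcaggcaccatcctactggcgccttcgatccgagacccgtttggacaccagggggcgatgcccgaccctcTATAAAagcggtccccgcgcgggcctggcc
Fos: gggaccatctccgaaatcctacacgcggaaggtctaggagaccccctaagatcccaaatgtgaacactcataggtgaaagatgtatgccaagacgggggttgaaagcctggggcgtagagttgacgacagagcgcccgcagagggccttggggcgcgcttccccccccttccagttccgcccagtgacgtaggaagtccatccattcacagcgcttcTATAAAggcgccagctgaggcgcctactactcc

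OGD minus control ranged from -3.13 to -0.75 on the log2 scale, with a median of -0.96 against 0.01 over all 16123 genes tested. OGD + A-485 minus OGD ranged from 0.75 to 6.3 with a median of 1.03. Relative to the control mean, the median gene stood at -0.94, -1.07 and -0.95 in the 3 OGD libraries and at 0.03, 0.08 and 0.12 in the OGD + A-485 libraries. The genes just inside the limit were Hras (smaller difference 0.75), Gpatch4 and Them6 (both 0.751), and those just outside were Tsku (0.749), Mrm2 (0.746) and mt-Nd4 (0.743), so there was no gap at the limit.

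**Figure D1:**
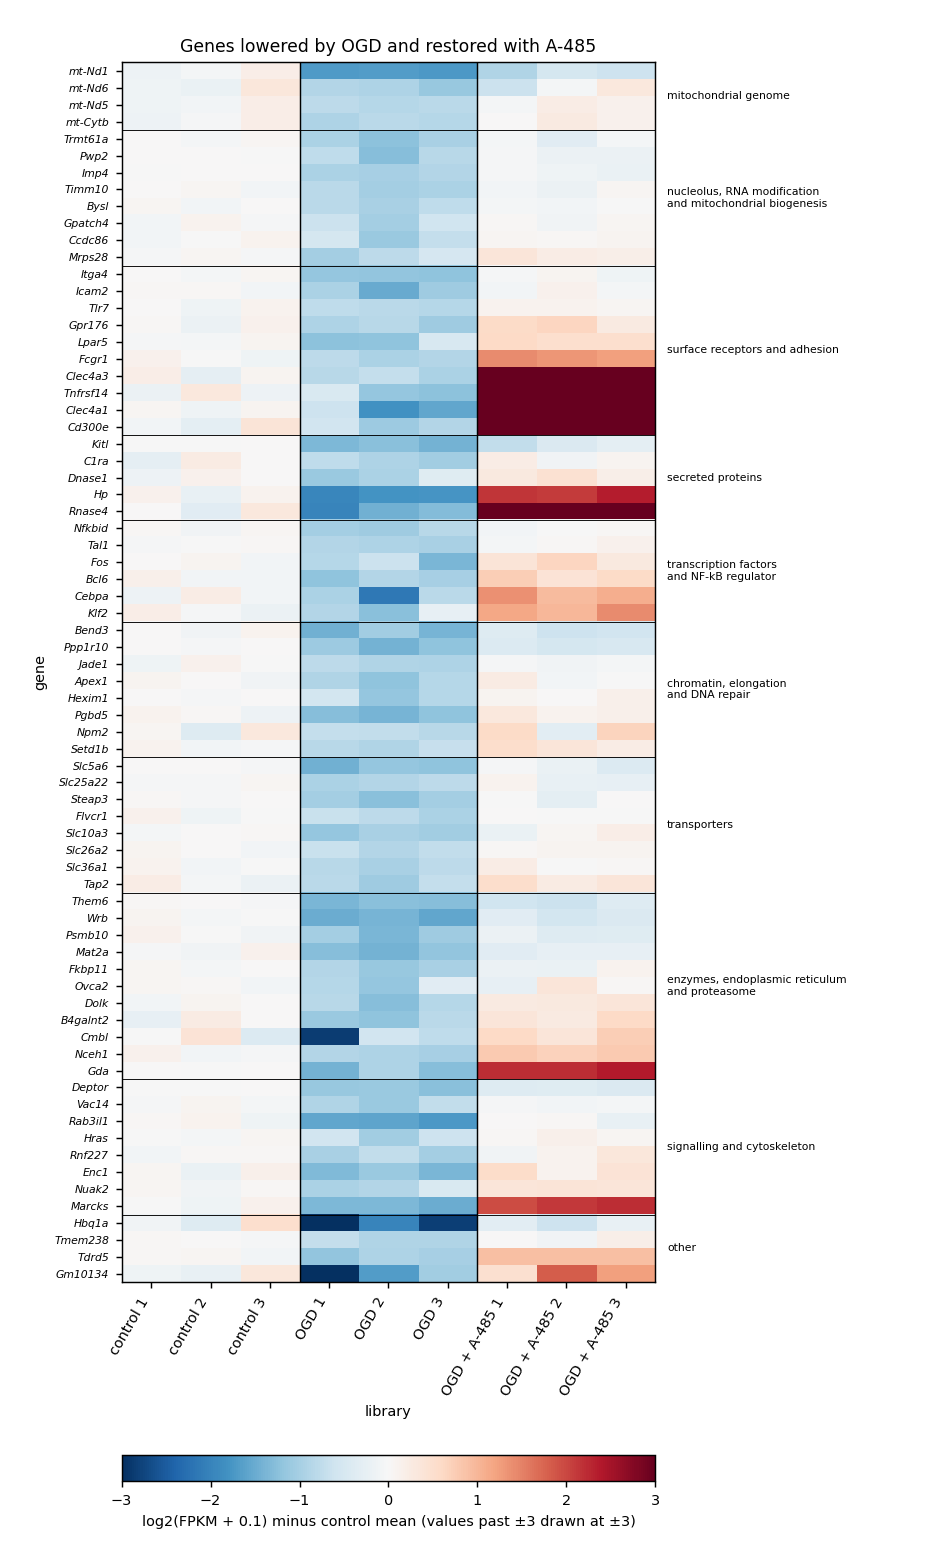
Heat map of 72 of the 73 genes (vertical axis, by function) in the 9 libraries (horizontal axis). Colour gives log2(FPKM + 0.1) minus the control mean, and the OGD libraries are blue throughout because of how the genes were chosen. With A-485 most genes are near white, and a group of surface, secreted and signalling genes is deep red.

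With A-485 present, 56 of the 73 genes were called neither above nor below their control level. The call required a limma p-value, before adjustment, under 0.01 and a log2 difference of more than 0.5 in either direction. OGD + A-485 against control gave 14 genes called higher and 3 called lower. Over all genes tested, 17.0% were called higher and 16.6% lower. Of the 14, 6 (Rnase4, Cd300e, Clec4a1, Tnfrsf14, Clec4a3 and Gda) had control and OGD means below 1 FPKM, as had Gm10134. These 7 genes passed the expression filter only through the A-485 libraries and so had to be higher there, and their differences from control are given as a description with no test. Of the other 66 genes, 8 (12.1%) were called higher and 3 (4.55%) lower. The rule limits how far a gene can lie below control but not how far above. Only 18 of the genes fell far enough in OGD for a call lower. Among these, the filter had fixed the direction of Rnase4, Clec4a1, Gm10134 and also Cmbl as higher. The balance of both directions was thus set in part by the choice. The median difference from control was 0.07, and 0.04 without those 7 genes, against 0.02 over all genes tested. The 95% interval lay within 0.5 of control on both sides for 34 genes. The share over all genes was not computed and the choice limits this difference from below, so nothing is read from that count. Every A-485 value was above every control value for 28 genes, those 7 among them, and below for 13, while 32 overlapped, against 31.8% above and 32.0% below over all genes. At an adjusted p-value under 0.05 with no limit on the size, 20 genes were higher and 9 lower, 29 of 73 against 56.6% of all genes.

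**Figure D2:**
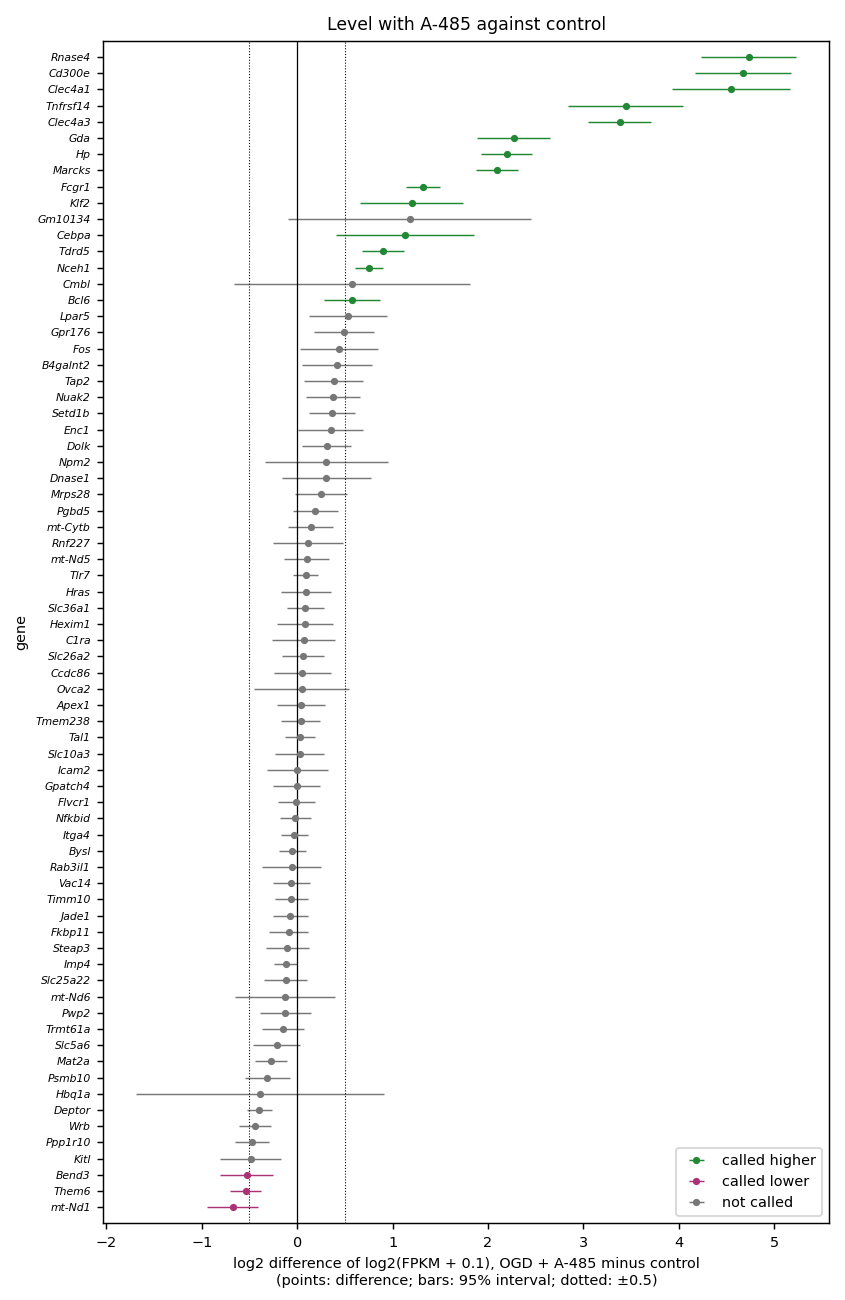
Difference between OGD + A-485 and control for 72 of the 73 genes (horizontal axis, log2 scale; vertical axis, genes in order). Points are limma estimates, bars 95% intervals and dotted lines 0.5 on either side of 0. The 14 genes called higher, 6 of them with a direction fixed by the filter on low values, reach 4.73, the 3 called lower lie between -0.68 and -0.53, and most bars cross 0.

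The surface receptors and adhesion molecules, 10 genes, included 5 called higher than control, where 17.0% of all genes were. For 4 of the 5, Clec4a1, Clec4a3, Cd300e and Tnfrsf14, the filter on low values fixed that direction, which leaves Fcgr1. The choice left no room for any of the 10 to be called lower. Clec4a1 and Clec4a3 encode C-type lectin receptors of myeloid cells and start 30667 bases apart on chromosome 6. Clec4a1 measured 0.625, 0.541 and 0.634 FPKM in control, 0.353, 0.0986 and 0.137 FPKM in OGD and 15, 17.1 and 16.6 FPKM with A-485. The choice itself kept the OGD values below both other groups. The A-485 mean was 27.1-fold the control mean (log2 difference 4.55 ± 0.27 SE), in the direction that the filter had fixed. Clec4a3 measured 1.07, 0.740 and 0.977 FPKM in control, 0.474, 0.521 and 0.429 FPKM in OGD and 9.70, 10.6 and 11.2 FPKM with A-485 (log2 difference from control 3.38 ± 0.14 SE). Both genes are thus low in control as well, and their OGD values rest on 2 to 9 reads per library.

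Cd300e, an activating receptor of monocytes, measured 0.251, 0.202 and 0.384 FPKM in control, 0.150, 0.0736 and 0.102 FPKM in OGD and 9.05, 9.22 and 9.87 FPKM with A-485. It was 33.6-fold control with A-485 (log2 difference 4.67 ± 0.22 SE). Tnfrsf14, the receptor for the ligand LIGHT, measured 0.416, 0.634 and 0.429 FPKM, then 0.328, 0.160 and 0.148 FPKM, then 7.66, 6.34 and 5.06 FPKM in the same order of groups. Its log2 difference from control was 3.44 ± 0.27 SE. The decrease of these receptors in OGD was the least well measured step. Summed over the 3 libraries of each group, control and OGD held 26 and 9 reads of Cd300e, 31 and 12 of Tnfrsf14, 41 and 12 of Clec4a1, and 54 and 25 of Clec4a3.

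Fcgr1, the high-affinity receptor for IgG, was abundant in all groups, with 17.6, 15.8 and 14.7 FPKM in control, 9.25, 8.22 and 8.59 FPKM in OGD and 42.9, 40.0 and 37.4 FPKM with A-485. Its log2 difference from control was 1.32 ± 0.08 SE (adjusted p = 1.1e-06). The other receptors were named after their values were seen, and none was called. Tlr7, the endosomal sensor of single-stranded RNA, measured 22.8, 20.8 and 24.3 FPKM in control, 13.2, 12.8 and 12.5 FPKM in OGD and 24.1, 24.4 and 23.4 FPKM with A-485, a difference from control of 0.09 (95% interval -0.04 to 0.22). Itga4, the integrin alpha chain of VLA-4, and Icam2, an adhesion ligand of LFA-1, differed from control by -0.03 (95% interval -0.17 to 0.11) and 0.00 (95% interval -0.32 to 0.32). Lpar5, a receptor for lysophosphatidic acid, and the orphan receptor Gpr176 were above control in every A-485 library (differences 0.54 and 0.49) without passing the call. In the same libraries the summed macrophage markers were also above control, and their part in these receptor values was not tested. The 50 nearest tested genes around Clec4a1 and around Clec4a3 had a median difference from control of 0.43, those around Cd300e 0.37, those around Lpar5 0.41 and those around Tnfrsf14 -0.44, against which the gene's own values can be read.

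**Figure D3:**
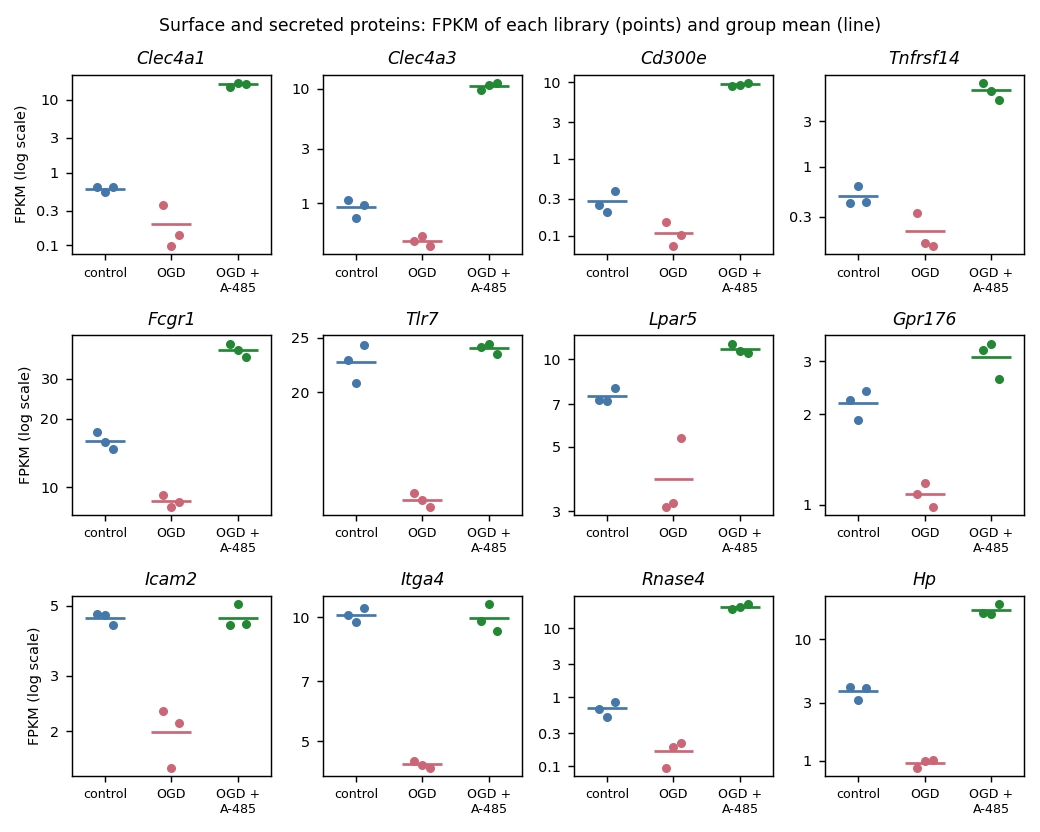
FPKM (vertical axis, log scale, own range for each gene) of 10 surface proteins and of Rnase4 and Hp in control, OGD and OGD + A-485 (horizontal axis). Points are libraries and lines are group means, and Clec4a1, Clec4a3, Cd300e, Tnfrsf14, Rnase4 and Hp are far above control with A-485, while Tlr7, Icam2 and Itga4 overlap control.

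Among the 5 secreted proteins, 2 were called higher than control, where 17.0% of all genes were. Only Hp, Kitl and Rnase4 fell far enough in OGD for a call lower, and the filter ruled that out for Rnase4. Rnase4, a secreted ribonuclease, had the widest swing of the 73 genes, with 0.686, 0.514 and 0.868 FPKM in control, 0.0960, 0.188 and 0.217 FPKM in OGD and 19.1, 20.4 and 22.2 FPKM with A-485. That was 29.8-fold control (log2 difference 4.73 ± 0.22 SE), a direction that the filter on low values had fixed. Its OGD libraries held 2 to 5 reads. Rnase4 shares exons on the same strand with Ang, which encodes angiogenin and measured 0.134, 0.0431 and 4.30 FPKM on average in the 3 groups, and reads in the shared exons cannot be assigned to either gene with certainty. The 50 tested genes nearest to Rnase4 on chromosome 14 had a median difference from control of 0.61. Hp, which encodes the hemoglobin-binding protein haptoglobin, measured 4.06, 3.15 and 4.0 FPKM in control, 0.880, 1.0 and 1.02 FPKM in OGD and 16.7, 16.1 and 19.4 FPKM with A-485 (log2 difference from control 2.20 ± 0.12 SE, adjusted p = 6.46e-07). Named after their values were seen, the complement protease C1ra, the extracellular nuclease Dnase1 and Kitl, the ligand of the receptor Kit, differed from control by 0.07, 0.30 and -0.49. Kitl reached 1.18, 1.48 and 1.64 FPKM with A-485 against 2.01 to 2.06 FPKM in control, below it in every library, but was not called since its difference was within 0.5.

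Of the 6 transcription factor genes and NF-kB regulators, 3 were called higher than control, where 17.0% of all genes were. Only Cebpa, at -1.295 in OGD, fell far enough that a call lower was possible. Klf2, a zinc finger factor that restrains myeloid activation, measured 3.16, 2.66 and 2.41 FPKM in control, 1.45, 1.08 and 2.27 FPKM in OGD and 6.26, 5.55 and 7.51 FPKM with A-485. The third OGD library came close to the lowest control library, and the difference of A-485 from control was 1.20 ± 0.24 SE (adjusted p = 0.00219). Cebpa, a factor of myeloid differentiation, measured 2.73, 3.57 and 2.86 FPKM, then 1.52, 0.612 and 1.70 FPKM, then 7.94, 5.91 and 6.55 FPKM. Its difference of 1.13 ± 0.32 SE (adjusted p = 0.0138) lost the call when any 1 control or A-485 library was left out, at unadjusted p from 0.0101 to 0.0266. Bcl6, a transcriptional repressor, was at 2.80, 2.39 and 2.37 FPKM in control and at 4.23, 3.35 and 3.81 FPKM with A-485 (difference 0.57 ± 0.13 SE, adjusted p = 0.00444). Without A-485 replicate 1 the difference of Bcl6 was 0.49 and no longer called. Nfkbid, an atypical inhibitor-like regulator of NF-kB, went from 17.6, 15.9 and 17.7 FPKM to 8.34, 8.15 and 9.48 FPKM in OGD and to 16.0, 17.1 and 17.4 FPKM with A-485, and its difference from control was -0.02 (95% interval -0.18 to 0.14). Tal1, a factor of blood cell formation, and the AP-1 subunit Fos, both named after their values were seen, differed from control by 0.03 and 0.44, and neither was called.

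The 4 genes of the mitochondrial genome, mt-Nd1, mt-Nd5, mt-Nd6 and mt-Cytb, were the most abundant per length. They encode 3 subunits of respiratory complex I and cytochrome b of complex III. mt-Nd1 measured 2379, 2529 and 3025 FPKM in control, 815, 819 and 799 FPKM in OGD and 1414, 1833 and 1718 FPKM with A-485. It thus came back only in part and was called lower than control (difference -0.68 ± 0.12 SE, adjusted p = 0.000983). mt-Cytb measured 1326, 1447 and 1702 FPKM in control, 780, 841 and 817 FPKM in OGD and 1501, 1798 and 1623 FPKM with A-485, overlapping control. mt-Nd5 and mt-Nd6 differed from control by 0.10 and -0.12, with 420, 624 and 818 FPKM for mt-Nd6 in the A-485 libraries against 570 to 820 FPKM in control. These 2 genes overlap on opposite strands, and whether reads were counted by strand is not stated.

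These genes share the transcripts of 1 circular genome and are no independent cases. All 13 protein genes of that genome had a lower mean in OGD, 9 had every OGD value below every control value and 8 also had every A-485 value above every OGD value. The ribosomal RNA genes of the same genome went another way: mt-Rnr1 was 0.35 above control in OGD and 1.58 lower with A-485 than in OGD on the log2 scale, and mt-Rnr2 was at -0.26 and then -0.58. The share of reads on mitochondrial genes was 1.82% to 2.20% in control, 1.14% to 1.28% in OGD and 1.66% to 2.01% with A-485.

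**Figure D4:**
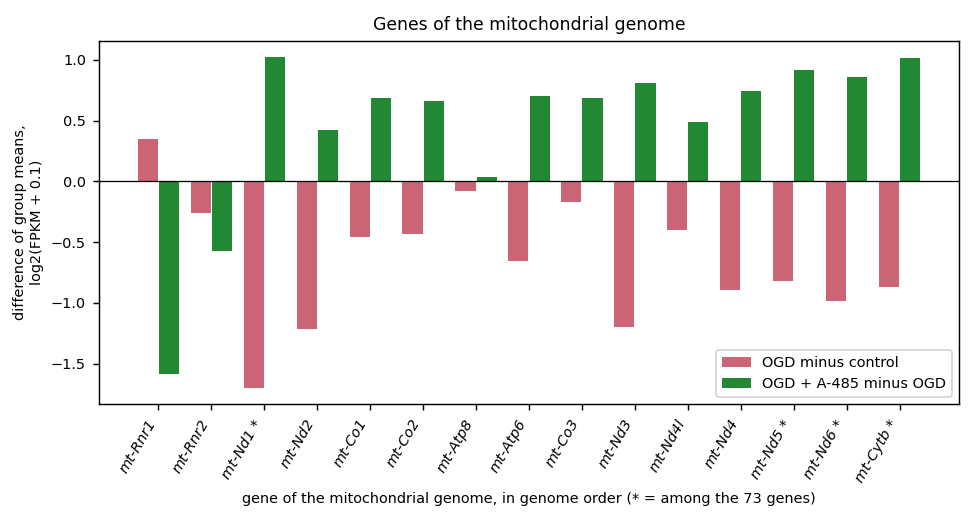
Differences of group means (vertical axis, log2(FPKM + 0.1)) for the 13 protein genes and 2 ribosomal RNA genes of the mitochondrial genome in genome order (horizontal axis), OGD minus control in red and OGD + A-485 minus OGD in green. The protein genes point down and then up, from -1.70 for mt-Nd1 in OGD, while mt-Rnr1 points up and then down.

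The 8 genes of the nucleolus, RNA modification and mitochondrial biogenesis differed from control by -0.15 to 0.25. None was called higher, where 17.0% of all genes were. Their deepest decrease in OGD was -1.05, and with a rise of at least 0.75 required none could have been called lower. Pwp2, Imp4 and Bysl encode factors that process the small ribosomal subunit. Imp4 measured 16.2, 16.5 and 16.5 FPKM in control, 8.43, 8.22 and 8.91 FPKM in OGD and 16.1, 15 and 14.3 FPKM with A-485 (difference from control -0.12, 95% interval -0.24 to 0.00). Bysl measured 20.4, 18.4 and 19.8 FPKM, then 11, 9.95 and 11.5 FPKM, then 18.9, 18.3 and 19.2 FPKM (difference -0.05, 95% interval -0.19 to 0.09). The 50 tested genes nearest to Bysl had a median difference of 0.34 from control, and with the neighbours' median removed Bysl was at -0.41. Pwp2 was at 17.4 to 17.9 FPKM in control, 7.22 to 10.3 FPKM in OGD and 15.7 to 17.2 FPKM with A-485 (difference -0.12, 95% interval -0.39 to 0.14). Gpatch4, a nucleolar G-patch protein, was at -0.01 from control (95% interval -0.25 to 0.24). Named after their values were seen, Ccdc86, another nucleolar protein, Trmt61a, the catalytic subunit of a tRNA methyltransferase, Mrps28 of the small mitochondrial ribosomal subunit and Timm10, a chaperone of mitochondrial import, differed by 0.06, -0.15, 0.25 and -0.06.

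Other ribosome biogenesis factors were also called lower in OGD. Of 64 such genes on a list written for this work, 31 were called lower in OGD than in control and none higher, where 9.81% and 11.2% of all genes were called. With A-485 against OGD 8 were called higher and 2 lower, where the shares over all genes were 12.2% and 13.4%. Against control 23 were called lower with A-485 and none higher, and the median of the list was -0.36. Pwp2, Imp4 and Bysl, 3 of the 64, are in these counts and were chosen for being lower in OGD and higher with A-485. The list was written with earlier results of these data known.

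The 8 transporter genes differed from control by -0.22 to 0.38, with none called. Only Slc5a6, at -1.27 in OGD, fell far enough that a call lower was possible. Slc5a6, the carrier of biotin and pantothenate, measured 5.59, 5.52 and 5.38 FPKM in control, 1.97, 2.39 and 2.32 FPKM in OGD and 5.38, 4.74 and 4.12 FPKM with A-485. Slc36a1, a proton-coupled amino acid carrier of lysosomes, went from 6.56 to 7.38 FPKM in control to 3.47 to 3.96 FPKM in OGD and 6.83 to 8.10 FPKM with A-485. Slc25a22, a mitochondrial glutamate carrier, Slc26a2, a sulfate carrier, and Slc10a3, a member of the bile acid carrier family, differed from control by -0.12, 0.06 and 0.03. Slc10a3 overlaps exons of Ubl4a on the same strand. Named after their values were seen, the heme exporter Flvcr1, the endosomal ferrireductase Steap3 and Tap2, a peptide transporter of antigen presentation, differed by -0.01, -0.10 and 0.38. Of all 207 solute carrier genes tested, 35 were called lower and 21 higher in OGD, where the shares over all genes were 9.81% and 11.2%. With A-485, 61 were called higher and 29 lower than in OGD (12.2% and 13.4% of all genes), and 53 higher and 35 lower than in control (17.0% and 16.6%).

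Of the 8 chromatin, transcription elongation and DNA repair genes, 1 was called lower than control and none higher (16.6% and 17.0% of all genes). That gene was Bend3, a repressor that binds CpG-rich DNA, which measured 5.68, 5.27 and 6.05 FPKM in control, 2.0, 2.71 and 2.11 FPKM in OGD and 4.31, 3.64 and 3.74 FPKM with A-485 (difference from control -0.53 ± 0.12 SE, adjusted p = 0.00508). The call was lost without control replicate 3 or A-485 replicate 2, at a difference of -0.48 in both cases. Pgbd5, a gene derived from a transposase, measured 3.28, 3.13 and 2.74 FPKM in control, 1.20, 1.10 and 1.25 FPKM in OGD and 3.78, 3.29 and 3.4 FPKM with A-485, a difference of 0.19 from control. The other 6 were named after their values were seen. Hexim1, which holds back the elongation kinase P-TEFb, and Apex1, the main endonuclease of base excision repair, were at 0.08 and 0.04 from control. The 50 tested genes nearest to Apex1 had a median difference from control of 0.64. Setd1b, a histone H3 lysine methyltransferase, and the histone chaperone Npm2 were at 0.37 and 0.31, and Jade1, a subunit of a histone acetyltransferase complex, and Ppp1r10, a nuclear phosphatase subunit, were at -0.07 and -0.47. Npm2 held 9 reads in each OGD library and shares exons with Xpo7.

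Of the 12 genes of metabolic enzymes, the endoplasmic reticulum and the proteasome, 2 were called higher than control and 1 lower. Over all genes tested these shares were 17.0% and 16.6%. Gda, guanine deaminase, measured 0.683, 0.675 and 0.684 FPKM in control, 0.192, 0.313 and 0.220 FPKM in OGD and 3.55, 3.51 and 3.95 FPKM with A-485, which was 5.39-fold control (log2 difference 2.27 ± 0.17 SE), again a direction fixed by the filter on low values. Nceh1, a cholesterol ester hydrolase of macrophages named after its values were seen, was at 9.30 to 10.9 FPKM in control, 4.97 to 5.37 FPKM in OGD and 16.1 to 17.1 FPKM with A-485 (difference 0.75 ± 0.06 SE, adjusted p = 1.21e-05). Them6, a protein of the thioesterase superfamily, was at 9.42 to 9.82 FPKM in control, 3.70 to 4.0 FPKM in OGD and 6.37, 6.17 and 7.31 FPKM with A-485 (difference -0.54 ± 0.07 SE, adjusted p = 0.000177), and it was not called without A-485 replicate 2. Mat2a, which makes the methyl donor S-adenosylmethionine, measured 48.0, 45.8 and 53.6 FPKM, then 20.3, 18.3 and 21.5 FPKM, then 39.0, 41.2 and 41.6 FPKM. All A-485 values of Mat2a were below control, and the difference of -0.27 (adjusted p = 0.0116) was within the call limit of 0.5. With the median of its 50 nearest tested genes removed (0.32), the difference of Mat2a was -0.58 and was called lower. Cmbl, a carboxymethylenebutenolidase homolog, rested on 1 to 12 reads in the OGD libraries, and its 95% interval ran from -0.66 to 1.81. It averaged 1.005 FPKM over all libraries, with means of 1.04 FPKM in control and 0.417 FPKM in OGD. The filter of 1 FPKM thus required its A-485 mean to exceed control, and its difference is a description with no test.

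A further 6 enzymes and related proteins, named after their values were seen, were not called. Wrb, a receptor subunit for tail-anchored membrane proteins, and Psmb10, a catalytic subunit of the immunoproteasome, stayed below control in every A-485 library, at -0.44 and -0.31. Fkbp11, a prolyl isomerase of the endoplasmic reticulum, and the hydrolase Ovca2 were at -0.09 and 0.05. Dolk, the dolichol kinase of protein glycosylation, and the glycosyltransferase B4galnt2 were above control in every A-485 library, at 0.31 and 0.42. Ovca2 shares exons with Dph1 on the same strand.

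Of the 8 signalling and cytoskeletal genes, Marcks was the only one called, where 17.0% of all genes were called higher and 16.6% lower. Marcks, an actin-binding substrate of protein kinase C, measured 3.13, 2.86 and 3.45 FPKM in control, 1.16, 1.18 and 1.05 FPKM in OGD and 12.4, 13.9 and 14.9 FPKM with A-485 (log2 difference from control 2.09 ± 0.10 SE, adjusted p = 2.81e-07). Rab3il1, an exchange factor for Rab GTPases, measured 1.81, 1.92 and 1.62 FPKM, then 0.536, 0.524 and 0.469 FPKM, then 1.79, 1.83 and 1.51 FPKM, among the deepest decreases with a level near control afterwards (difference -0.06, 95% interval -0.37 to 0.25). Enc1, an actin-binding kelch protein, and the small GTPase Hras were at 0.35 and 0.09 from control, and with the neighbours' median removed Enc1 was at 0.59 and called higher. Named after their values were seen, Deptor, an inhibitor of mTOR, stayed below control in every A-485 library at -0.40, and Vac14, a scaffold of phosphoinositide synthesis, the ubiquitin ligase-like Rnf227 and the kinase Nuak2 were at -0.06, 0.11 and 0.38.

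The 4 remaining genes have no common function. Hbq1a, a theta globin gene with a near copy, had the deepest decrease of the 73 genes, but on 0, 4 and 2 reads in OGD against 17, 15 and 32 in control and 16, 14 and 17 with A-485. Gm10134, a predicted gene, had 4, 4 and 7 reads in control, 0, 1 and 2 in OGD and 7, 20 and 12 with A-485. Its difference from control of 1.18 ± 0.56 SE is a description, since the filter on low values fixed the direction. Tdrd5, a Tudor domain protein of the germ line named after its values were seen, was at 2.12 to 2.34 FPKM in control, 0.929 to 1.13 FPKM in OGD and 4.26, 4.27 and 4.28 FPKM with A-485 (difference 0.90 ± 0.10 SE, adjusted p = 5.03e-05). Tmem238, a small membrane protein also named after its values were seen, was at 0.04 from control.

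The lists to which at least 3 of the 73 genes belonged were counted whole, with those genes included. The list of cytokine and immune receptors held 127 tested genes, 6 of them among the 73. The choice fixed those 6 as lower in OGD and higher with A-485. For Clec4a1, Clec4a3, Cd300e and Tnfrsf14 the filter on low values also fixed the direction against control. In OGD 39 of the 127 were called higher and 11 lower than control, where 11.2% and 9.81% of all genes were called. With A-485, 70 were called higher and 17 lower than in OGD (12.2% and 13.4% of all genes), and 83 higher and 14 lower than in control (17.0% and 16.6%). The list of other DNA-binding transcription factors, in which the NF-kB regulator Nfkbid had been placed, held 262 tested genes with 26 called higher and 33 lower in OGD. With A-485 54 were higher and 41 lower than in OGD, and 62 higher and 56 lower than in control. Of 44 lists, 12 held 1 or 2 of the 73 genes and 28 held none. Those of the 73 genes on a list were chosen by these contrasts and are in its counts, and nothing particular to a list is read from the counts.

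**Figure D5:**
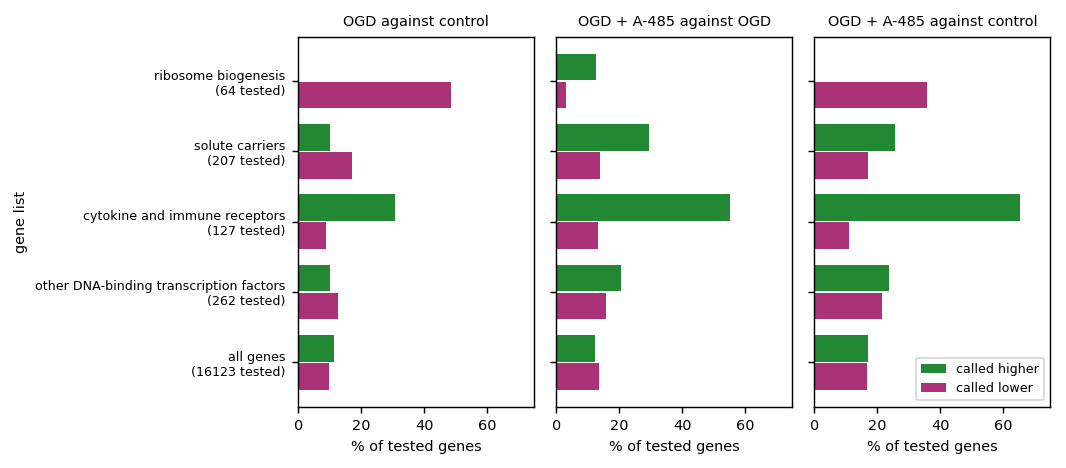
Share of tested genes called higher (green) or lower (purple) in 3 comparisons (horizontal axis, percent; vertical axis, the 4 lists with at least 3 of the 73 genes, and all 16123 genes). Of 64 ribosome biogenesis factors, 31 are called lower in OGD and 23 with A-485 against control (9.81% and 16.6% of all genes). Of 127 immune receptors, 39 are called higher in OGD and 83 with A-485 against control (11.2% and 17.0% of all genes). The counts of a list include those of the 73 genes on it.

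The 73 genes were somewhat shorter and less abundant than the expressed protein-coding genes in general, with a median length of 3083 against 4398 bases and a median of mean FPKM of 5.68 against 9.88. Exons of 12 overlapped another gene that averaged at least 1 FPKM, among them Dnase1 with Trap1 (117 FPKM), Bysl with Ccnd3 (21.3 FPKM) and Slc5a6 with Atraid (11.8 FPKM), on the opposite strand in these cases.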

How the data were processed

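RNA of BV2 cells was sequenced in 9 libraries. The authors counted reads on genes with featureCounts (v1.5.0-p3, per the labels, with builds GRCm38 and mm10) and deposited FPKM for 54532 genes. The aligner is not given in the sources used here. FPKM times gene length and library scale gave whole reads (tolerance 0.01) for 100% of values. The members and lists were chosen with earlier results of these data known.

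With limma 3.58.1 in R 4.3.3, log2(FPKM + 0.1) was modelled for 16123 genes averaging 0.2 FPKM or more, as group means with a trended prior variance. Calls used p under 0.01 and an absolute difference above 0.5, and p-values were adjusted over all genes by Benjamini-Hochberg. On simulated data for OGD + A-485 against control with 15815 genes, 94% of 2-fold and 97% of 4-fold changes were recovered. That simulation gave every gene the same spread beyond counting noise and changed 200 genes that averaged at least 1 FPKM. These rates therefore need not hold for the real libraries or for genes with few reads. An exact permutation test of 3 against 3 cannot go below p = 0.1 and was not used. Of the 73 genes, 36 were named by rule: the 12 with the largest smaller difference, the 5 furthest called above and below control, the 5 most abundant, those at the limit, up to 5 per list with at least 3 members, and neighbours within 100 kb. Libraries of a group differed beyond sampling noise. Same-numbered libraries of different groups deviated with correlations of -0.125 to 0.072, and differently numbered ones with -0.086 to 0.132. No pairing by number was seen, but these values cannot exclude it. Alternatives were other pseudocounts, filters, scalings, fits and left-out libraries. The values of 1 of the 73 genes are not reported here, though it is in the counts. Python 3.11.15 was used elsewhere.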

Additional observations from a re-analysis of the deposited data

How the results depend on the processing

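The number of genes meeting the rule was 34 at a pseudocount of 1, 22 with both differences at least 1, 307 with both at least 0.5, and 67 to 86 when any 1 library was left out. It was 99 after quantile normalization (70 of the 73 kept) and 70 after rescaling to library totals (63 kept). The count called higher than control with A-485 was 12 to 15 with any 1 library left out. The count called lower was 1 at a pseudocount of 1, 7 on library totals and 9 at an adjusted p under 0.05, and 1 to 4 with any 1 library left out, the 1 being without OGD + A-485 replicate 2. The median difference from control was -0.046 on library totals, which shifted the median of all genes by -0.10, 0.02 with the median of neighbouring genes removed, and 0.06 to 0.09 with any 1 library left out. The deposited FPKM already hold median-of-ratios factors, so that rescaling could hardly move a value. With a replicate block, 14 genes were called higher and 3 lower and the median was 0.07, and no call among the named genes changed. Of 792 values of the 36 named genes under alternatives, 19 lost and 4 gained a call and none reversed. Beside the calls lost with a library left out, Bcl6, Bend3 and Them6 lost theirs at a pseudocount of 1, Bcl6 and Cebpa on library totals, Bend3 and Them6 after quantile normalization, Cebpa with no trend in the prior variance and Them6 with neighbours removed. The gains were Mat2a and Enc1 with neighbours removed, Mat2a at an adjusted p under 0.05 and Gm10134 at a pseudocount of 1. The causes were not tested. Low counts limit the 9 genes with fewer than 10 reads in an OGD library. Leaving out the mitochondrial genome, an alternative chosen after seeing the data, left 69 genes.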
